A study of Mus musculus with 20 samples.

Results

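The genes described here are the secreted ligands, the receptors and the extracellular modulators of Wnt signaling in the early postnatal mouse brain. They were chosen by symbol from the count files: every Wnt ligand and every Frizzled receptor (Fzd), together with *Lrp5*, *Lrp6*, *Axin2*, *Wif1* and *Frzb*. Genes with a symbol from *Sfrp1* to *Sfrp5* (secreted Frizzled-related proteins), *Dkk1* to *Dkk4* (Dickkopf proteins) or *Rspo1* to *Rspo4* (R-spondins) were also taken. This rule found 46 of the 47729 genes in the files, 19 of them ligands and 10 of them Frizzled receptors, and each of the 46 had a count in at least 1 library. Messenger RNA was measured by RNA-Seq in the hippocampus and the cortex of 10 C57Bl/6J mice at postnatal day 7, 1 library per tissue and mouse and 20 libraries in all. Mice 1 to 5 were WT. Mice 6 to 10 were *Ube3aOE* mice of the *Ube3a+2* genotype, which carry 2 extra copies of *Ube3a* on a floxed bacterial artificial chromosome transgene with its flanking sequence, beside their own *Ube3a*. The study made several transgenic lines and concentrated on the line it calls E after a first comparison of them, while the labels of these libraries name no line. Both tissues are mixtures of cell types, so fewer cells of a type and less RNA per cell cannot be told apart.

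Wnt proteins are secreted, lipid-modified ligands that bind Frizzled receptors. With the co-receptors *Lrp5* or *Lrp6* they stabilize β-catenin, which enters the nucleus and acts with TCF/LEF factors on target genes such as *Axin2*, and other Wnt ligands act through β-catenin-independent routes. The proteins of the *Sfrp* genes, *Wif1* and *Frzb* bind Wnt ligands outside the cell, Dickkopf proteins such as *Dkk1* block the Lrp co-receptors, and R-spondins raise the number of Wnt receptors at the surface. Wnt ligands from the cortical hem, at the medial edge of the embryonic cortex, are known to be needed for the hippocampus to form, and Wnt signals later act on neural stem cells of the dentate gyrus and on synapses.

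The ligands hold the largest differences between the regions, in both directions, and the stretches just before the starts of 4 of them are shown so that their composition can be compared (RefSeq, build GRCm38.p6, written 5′ to 3′ on the strand of the gene). They belong to the 4 called ligands of largest difference among those whose RefSeq and GENCODE starts lie within 10 bases of each other. Of these, *Wnt8b*, *Wnt9b* and *Wnt11* were higher and *Wnt9a* was lower in hippocampus. The stretches are chr19:44493222-44493471 (plus strand) for *Wnt8b*, chr11:103749822-103750071 (minus strand) for *Wnt9b*, chr7:98834862-98835111 (plus strand) for *Wnt11* and chr11:59306680-59306927 (plus strand) for *Wnt9a*, and they lie outside the transcribed gene. Capitals mark the 6-base core of TCF/LEF motifs, searched as CTTTGA and as its reverse complement TCAAAG.
Wnt8b: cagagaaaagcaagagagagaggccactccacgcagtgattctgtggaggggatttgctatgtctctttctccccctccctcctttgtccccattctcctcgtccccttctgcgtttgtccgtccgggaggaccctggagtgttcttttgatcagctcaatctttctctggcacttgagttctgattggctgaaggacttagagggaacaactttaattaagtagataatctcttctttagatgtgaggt
Wnt9b: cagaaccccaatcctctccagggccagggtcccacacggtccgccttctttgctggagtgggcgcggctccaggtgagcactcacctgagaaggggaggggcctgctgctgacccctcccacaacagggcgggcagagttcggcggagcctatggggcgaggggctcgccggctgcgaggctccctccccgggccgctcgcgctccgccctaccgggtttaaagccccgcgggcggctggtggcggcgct
Wnt11: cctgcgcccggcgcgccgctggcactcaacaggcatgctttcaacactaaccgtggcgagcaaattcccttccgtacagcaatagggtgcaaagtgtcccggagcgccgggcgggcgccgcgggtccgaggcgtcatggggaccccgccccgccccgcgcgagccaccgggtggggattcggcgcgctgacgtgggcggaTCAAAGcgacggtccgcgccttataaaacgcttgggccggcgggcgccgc
Wnt9a: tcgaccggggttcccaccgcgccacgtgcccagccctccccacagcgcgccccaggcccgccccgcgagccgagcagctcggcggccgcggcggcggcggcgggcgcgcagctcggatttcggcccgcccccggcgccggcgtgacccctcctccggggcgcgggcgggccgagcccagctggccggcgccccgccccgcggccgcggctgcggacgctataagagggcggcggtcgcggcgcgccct
Bases G and C made up 48.4% of the stretch before *Wnt8b*, against 72% before *Wnt9b*, 70.8% before *Wnt11* and 84.3% before *Wnt9a*, and the median of all 32851 RefSeq windows of 250 bases was 52.4%. The dinucleotide CG occurred 5 times before *Wnt8b* and 48 times before *Wnt9a*. Of these 4 stretches, the 1 before *Wnt11* held the TCF/LEF core. Over the 30 members with a RefSeq window, the core was found for 5 (*Dkk1*, *Frzb*, *Fzd1*, *Wnt11* and *Wnt5b*), or 16.7%, and it was in 13.8% of all windows.

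The libraries held 14191093 to 16752326 counts on genes, and 69.7% to 81.2% of the reads were counted on a gene. *Ube3a*, the targeted gene, had medians of 60.2 CPM (the count of a gene scaled by the effective size of its library) in the cortex and 60.2 CPM in the hippocampus of WT mice against 136 and 147 CPM in *Ube3a+2* mice, with no overlap between genotypes. Sex-linked transcripts went against the labelled sex in 2 WT mice, numbers 3 and 5. Lists of marker genes were used to check the labelled tissues. The summed level of 8 hippocampus markers was 550.0 to 892 CPM in hippocampus and 250.5 to 397 CPM in cortex, and that of 7 neocortex markers was 1670 to 2701 CPM in cortex and 272 to 1008 CPM in hippocampus. *Mef2c* alone gave 1173 to 1916 CPM of the neocortex sum in cortex. *Fezf2* (47.2 to 72.7 CPM in cortex, 26.9 to 83.6 CPM in hippocampus) and *Lamp5* of that list overlapped between the regions. So did *Neurod6*, *Calb1* and *Lct* of the hippocampus list, and the other markers of the 2 lists did not. No marker was at 0 in every library of a group. A total of 8 libraries stood apart, in that their mean log2 level of a list for another tissue was over 0.5 above the median of their region. In hippocampus these were WT mice 2 (neocortex markers) and 4 (thalamus and habenula markers) and *Ube3a+2* mice 7, 9 and 10 (thalamus and habenula, choroid plexus, striatum or neocortex markers). In cortex they were WT mouse 3 (striatum markers) and *Ube3a+2* mice 8 and 9 (hippocampus markers, the thalamus and habenula list, and striatum markers in mouse 9). In mice 8 and 9 the thalamus and habenula list was raised through *Lhx9*, *Ntng1* and *Slc17a6*. These genes were also counted in hippocampus, at 24.6, 35.05 and 70.6 CPM in WT mouse 1. *Pou4f1* was at 0 CPM and *Gbx2* at 0.0597 and 0.244 CPM in the cortex of mice 8 and 9. *Rora* (16.9 and 28.9 CPM) and *Tac2* (3.94 and 4.09 CPM) were not raised there. Results below are given with the 8 libraries that stood apart, and without them where that changed a result.

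Hippocampus and cortex were compared first, since the Wnt genes of the brain are known for regional expression. Of the 46 members, 38 passed the filter on low counts, and 24 of these differed between the regions, 17 higher and 7 lower in hippocampus (edgeR's quasi-likelihood test with Benjamini-Hochberg adjustment over all genes tested, adjusted P under 0.05). Over all 15661 genes tested, 50.9% differed, 25.3% being higher and 25.6% lower in hippocampus. A log2 fold change over 1 was found for 7 members and for 4.76% of all genes, and a log2 fold change under -1 for 4 members and for 2.43% of all genes. The median log2 fold change of the 38 members was 0.27, against -0.01 over all genes, and their median size regardless of sign was 0.47 against 0.20. The members were not matched to all genes for level or spread. By role, 8 of 15 tested Wnt ligands were higher and 5 lower, 5 of 10 Frizzled receptors were higher and 1 lower, and 2 of 3 R-spondins, 1 of 2 Dickkopf proteins and 1 of 2 Lrp co-receptors were higher. Of 3 tested *Sfrp* genes 1 was lower, and *Wif1*, *Frzb* and *Axin2* did not pass the test. The CPM of all 10 libraries of a region lay apart from all 10 of the other for 7 members, 5 of them higher in hippocampus (*Wnt2*, *Wnt7a*, *Wnt8b*, *Wnt9b* and *Wnt10a*) and 2 lower (*Wnt9a* and *Fzd3*), and for 9.27% of all genes tested. In cortex libraries alone, *Wnt2*, *Wnt8b*, *Wnt9b*, *Wnt10a* and *Wnt11* did not pass the filter on low counts, nor did *Wnt6* in hippocampus libraries alone. They entered the test through the region where they are high, so their separation and calls are not independent of the filter. *Wnt16* passed the filter in the libraries of neither region alone and was tested only with both regions together, so its call also depends on the filter. Without the 8 libraries that stood apart, 23 of 38 members differed, 20 of them among the 24 above, and 48.0% of all genes. The 5 astrocyte markers, each with a count in every library, also lay apart, at 1041 to 1577 CPM in sum in hippocampus and 678 to 909 CPM in cortex, and their part in the members' differences was not tested.

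**Figure D1:**
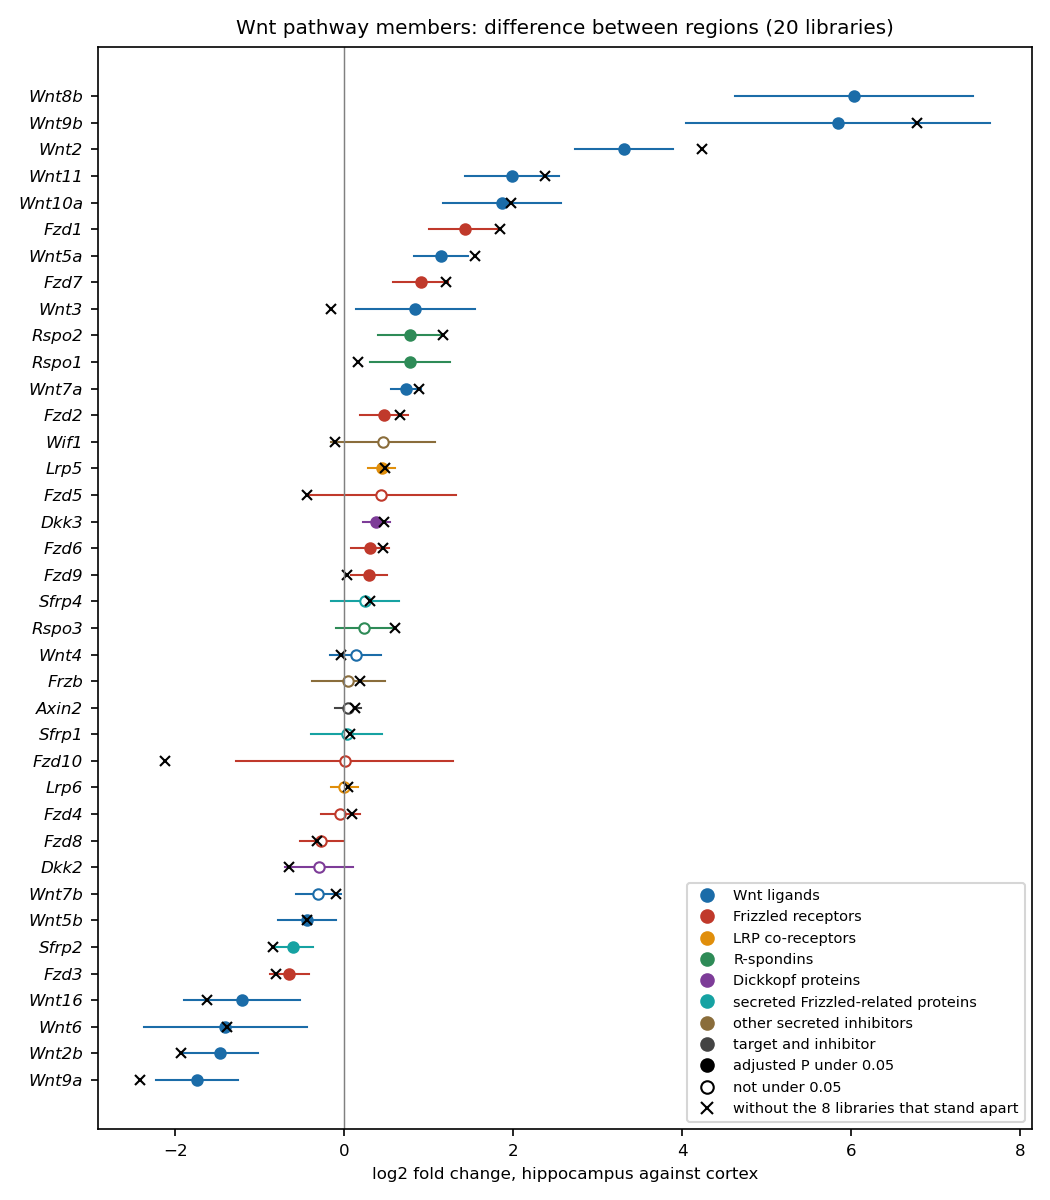
Difference between hippocampus and cortex for the 38 tested members, as log2 fold change with its 95% confidence interval, colored by role, with filled points for an adjusted P value under 0.05 and crosses for the value without the 8 libraries that stood apart. *Wnt8b* (6.03) and *Wnt9b* (5.84) lie at the top and *Wnt9a* (-1.74) at the bottom, and *Wnt3* and *Fzd5* have their point to the right and their cross to the left of 0. No cross is drawn for *Wnt8b*, since the cortex libraries that remain had no count of it.

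The ligands higher in hippocampus were led by *Wnt8b* and *Wnt9b*. Values are given in the order of the mouse numbers, 1 to 5 in WT and 6 to 10 in *Ube3a+2* mice. *Wnt8b*, a ligand of the embryonic cortical hem and medial pallium, was counted in 1 of 10 cortex libraries, at 0.122 CPM (2 counts) in mouse 9. In hippocampus its levels were 0.821, 0.308, 1.97, 1.32 and 1.56 CPM in WT and 1.01, 1.69, 0.768, 0.386 and 0.599 CPM in *Ube3a+2* mice. Every hippocampus library thus lay above every cortex library, with the lowest values in mice 2 and 9, whose hippocampus libraries stood apart in neocortex markers. The summed counts were 175 in hippocampus and 2 in cortex, a ratio of 82.0 per effective library size with an exact 95% interval of 22.4 to 683 that covers counting error only. On the log2 scale, *Wnt8b* differed by 6.03 (SE 0.67, adjusted P = 9.69e-07, edgeR), and the exact permutation test that swapped regions within mice gave P = 0.00195, the smallest it can give with 10 mice.

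*Wnt9b*, a ligand best known from kidney and face development, was near 0 in cortex, at 0.0638, 0.0748, 0.0648, 0.128 and 0.0622 CPM in WT and 0, 0, 0.358, 0.183 and 0 CPM in *Ube3a+2* mice. In hippocampus it was 1.88, 0.800, 2.03, 11.8 and 2.14 CPM in WT and 2.14, 11.0, 6.15, 0.965 and 25.2 CPM in *Ube3a+2* mice. The regions did not overlap, but the hippocampus values spread over a wide range, with mice 4, 7 and 10 highest, mouse 8 next and mice 2 and 9 lowest. *Wnt9b* had a log2 fold change of 5.84 (SE 0.85, adjusted P = 1.95e-05, edgeR). Without the 8 libraries that stood apart it was 6.78 (adjusted P = 8.97e-08, edgeR), and without the 3 hippocampus libraries highest in thalamus and habenula markers it was 4.51 (adjusted P = 2.13e-06, edgeR).

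*Wnt2*, a ligand of the β-catenin route, had the smallest adjusted P value of the ligands. *Wnt2* stood at 9.08, 7.81, 8.88, 8.85 and 12.5 CPM in WT and 11.0, 7.85, 9.93, 5.92 and 6.17 CPM in *Ube3a+2* hippocampus. The cortex values were 0.638, 0.673, 0.518, 0.385 and 0.622 CPM in WT and 0.572, 0.517, 2.27, 2.93 and 0.443 CPM in *Ube3a+2* mice. Hippocampus was above cortex in all 10 mice without overlap, and the cortex libraries of mice 8 and 9, which stood apart in hippocampus markers, were the 2 highest of their region. This gave a log2 fold change of 3.31 (SE 0.28, adjusted P = 1.21e-08, edgeR), or 9.94-fold, and 4.24 without the 8 libraries (adjusted P = 1.09e-11, edgeR).

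*Wnt11*, which acts mostly outside the β-catenin route, was also higher in hippocampus. Cortex libraries of WT mice gave 0.128, 0.823, 0.259, 0.385 and 0.560 CPM, and those of *Ube3a+2* mice 0.445, 0.388, 1.13, 1.16 and 0.380 CPM. Hippocampus libraries gave 1.93, 1.85, 2.22, 2.53 and 3.29 CPM and 2.74, 2.23, 1.42, 1.16 and 2.58 CPM in the same order of genotypes. Hippocampus was higher in 9 of 10 mice, the exception being mouse 9, where both libraries held 1.16 CPM. The fitted difference was 1.99 on the log2 scale (SE 0.27, adjusted P = 2.99e-06, edgeR).

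*Wnt5a*, the main ligand of the β-catenin-independent routes, was among the higher ones too. The hippocampus held 26.0, 12.6, 27.4, 25.7 and 27.1 CPM in WT and 25.9, 21.3, 26.5, 18.6 and 19.1 CPM in *Ube3a+2* mice. For cortex, 9.19, 7.63, 11.1, 6.93 and 8.90 CPM were found in WT and 6.92, 12.0, 15.8, 15.4 and 11.2 CPM in *Ube3a+2* mice. The hippocampus libraries were higher in all 10 mice, while that of mouse 2 lay below the cortex libraries of mice 8 and 9. On the log2 scale, *Wnt5a* differed by 1.15 (SE 0.15, adjusted P = 4.11e-06, edgeR).

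*Wnt3*, a β-catenin ligand whose gene is the neighbor of *Wnt9b*, passed the test by a narrow margin. In cortex, the WT libraries held 2.74, 3.66, 3.76, 4.04 and 2.61 CPM and the *Ube3a+2* libraries 3.43, 4.27, 2.98, 2.14 and 3.29 CPM. In hippocampus, they held 3.46, 3.81, 2.65, 9.31 and 2.77 CPM in WT and 3.04, 9.54, 3.43, 3.54 and 19.7 CPM in *Ube3a+2* mice. The hippocampus values of mice 4, 7 and 10 were above all others, while the other 7 hippocampus libraries lay within the range of cortex, 2.14 to 4.27 CPM. *Wnt3* had a log2 fold change of 0.84 (SE 0.34, adjusted P = 0.0445, edgeR). With the mouse as a block it was 0.62 (adjusted P = 0.0585, edgeR), without the 8 libraries -0.15 (adjusted P = 0.439, edgeR) and without the 3 hippocampus libraries highest in thalamus and habenula markers -0.01 (adjusted P = 0.958, edgeR). Leaving out any of mice 1, 2, 4, 5, 7 and 10 also ended the call (adjusted P from 0.0635 to 0.145, edgeR), and the exact permutation test over mice gave P = 0.0645.

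The other ligands higher in hippocampus were *Wnt7a*, a ligand known for brain angiogenesis and synapse formation, and *Wnt10a*. *Wnt7a* was 25.9 ± 3.42 CPM in hippocampus and 15.7 ± 2.39 CPM in cortex (SD, n = 10), a difference of 0.73 on the log2 scale (SE 0.09, adjusted P = 4.95e-07, edgeR) with no overlap between regions. *Wnt10a* was called at low levels, 0.450 to 1.80 CPM in hippocampus and 0 to 0.427 CPM in cortex, with a log2 difference of 1.87 (SE 0.34, adjusted P = 9.56e-05, edgeR).

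**Figure D2:**
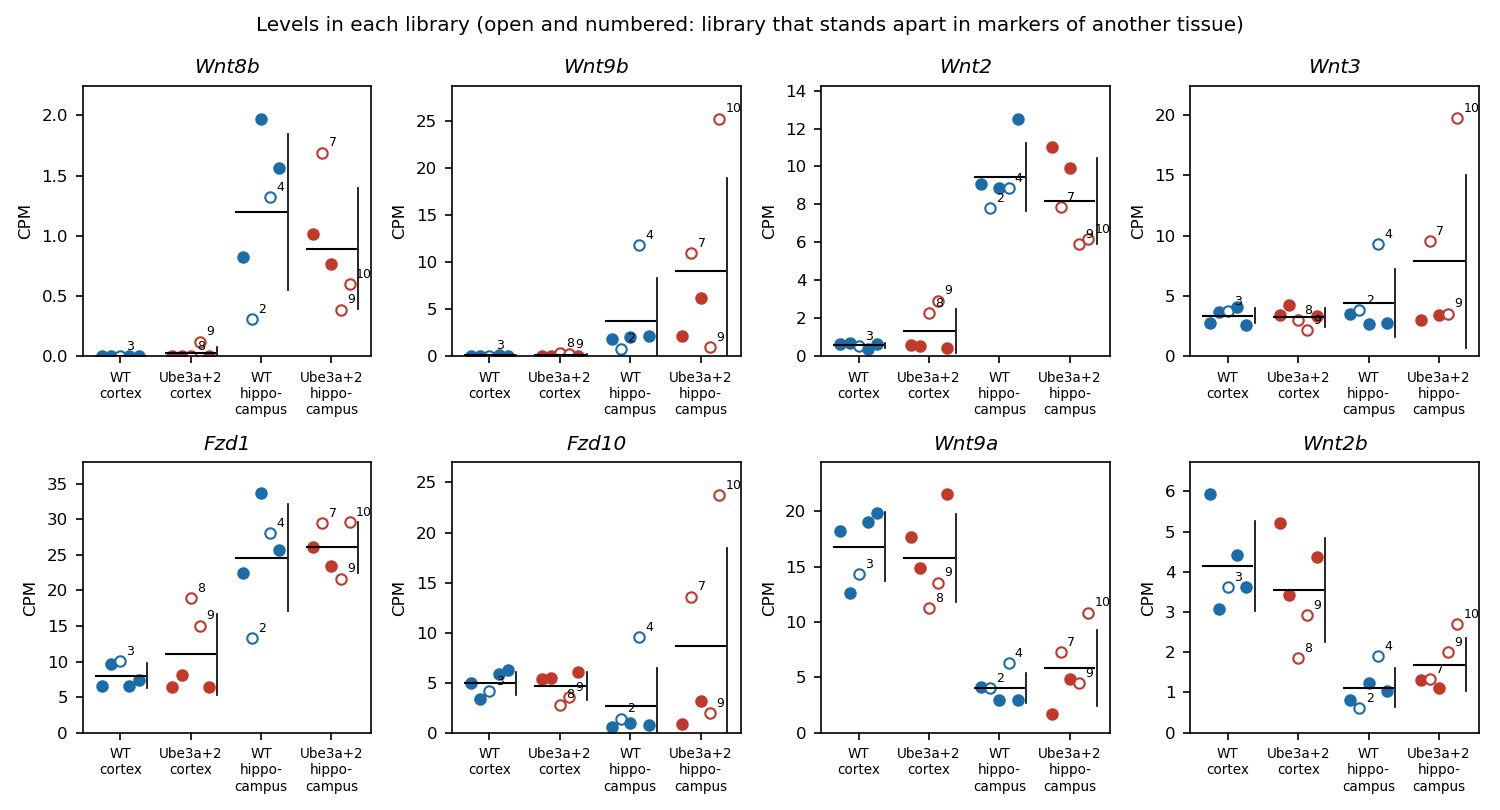
CPM of 8 members in each of the 20 libraries by genotype and tissue, with the group mean as a horizontal line and 1 SD to either side as a vertical line, cut off at 0. Open, numbered points are libraries that stood apart in markers of another tissue. Mice 4, 7 and 10 are the 3 highest hippocampus libraries for *Wnt9b*, *Wnt3*, *Fzd10* and *Wnt9a*, and mice 8 and 9 the 2 highest cortex libraries for *Wnt2* and *Fzd1*.

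Lower in hippocampus were *Wnt9a*, *Wnt2b*, *Wnt5b*, *Wnt6* and *Wnt16*. *Wnt9a*, a close relative of *Wnt9b*, had the largest such difference. *Wnt9a* stood at 4.16, 4.00, 2.96, 6.26 and 2.94 CPM in WT and 1.67, 7.24, 4.85, 4.50 and 10.8 CPM in *Ube3a+2* hippocampus. The cortex values were 18.2, 12.6, 14.3, 19.0 and 19.9 CPM in WT and 17.7, 14.9, 11.2, 13.5 and 21.5 CPM in *Ube3a+2* mice. The regions did not overlap, and cortex was higher in all 10 mice, although mice 4, 7 and 10 were again the 3 highest in hippocampus. This gave a log2 fold change of -1.74 (SE 0.23, adjusted P = 4.90e-06, edgeR), and -2.42 without the 8 libraries (adjusted P = 1.42e-06, edgeR). *Wnt9a* and *Wnt9b* therefore differed between the regions in opposite directions.

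*Wnt2b*, a ligand also made by the embryonic cortical hem, was lower in hippocampus in all 10 mice. Cortex libraries of WT mice gave 5.93, 3.07, 3.63, 4.42 and 3.61 CPM, and those of *Ube3a+2* mice 5.21, 3.43, 1.85, 2.93 and 4.37 CPM. Hippocampus libraries gave 0.821, 0.615, 1.23, 1.90 and 1.04 CPM and 1.31, 1.33, 1.12, 1.99 and 2.70 CPM in the same order of genotypes. The cortex library of mouse 8 lay within the range of hippocampus, 0.615 to 2.70 CPM. The fitted difference was -1.47 on the log2 scale (SE 0.22, adjusted P = 8.74e-06, edgeR). *Wnt2* and *Wnt2b*, which carry the same family number, thus also differed in opposite directions.

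*Wnt5b*, a relative of *Wnt5a*, showed a small difference. The hippocampus held 1.11, 0.984, 1.42, 1.38 and 1.10 CPM in WT and 1.49, 1.21, 1.06, 1.03 and 0.899 CPM in *Ube3a+2* mice. For cortex, 1.08, 1.35, 1.68, 1.67 and 1.37 CPM were found in WT and 1.91, 2.91, 1.43, 1.16 and 1.46 CPM in *Ube3a+2* mice. The regions overlapped, and cortex was higher in 9 of 10 mice. On the log2 scale, *Wnt5b* differed by -0.44 (SE 0.17, adjusted P = 0.0303, edgeR). This call was lost without the 8 libraries, and without mouse 2, 3, 4, 5 or 7 alone (adjusted P from 0.0515 to 0.0833, edgeR). *Wnt6* and *Wnt16* were called lower at under 1 CPM in both regions on average, at 0.301 ± 0.213 CPM against 0.846 ± 0.807 CPM for *Wnt6* and 0.311 ± 0.209 CPM against 0.702 ± 0.326 CPM for *Wnt16* (SD, n = 10). Their log2 differences were -1.41 (adjusted P = 0.0156) and -1.21 (adjusted P = 0.00435) by edgeR. The 2 highest cortex values of *Wnt6*, 2.86 and 1.53 CPM, were in mice 8 and 9, the 2 cortex libraries with the most meninges markers, at 774 and 408 CPM in sum over 8 genes that all had a count in every library. Over groups that sum was 172 to 361 CPM in WT and 133 to 774 CPM in *Ube3a+2* cortex, and 131 to 409 CPM in hippocampus, and its part in the result was not tested. Without mouse 3 or mouse 8 the call of *Wnt6* was lost (adjusted P = 0.0539 and 0.0582, edgeR). Without mouse 9, *Wnt16* did not pass the filter on low counts and was not tested.

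*Wnt7b*, the ligand with the highest level per length, was 73.1 ± 13.6 CPM in hippocampus and 90.5 ± 18.5 CPM in cortex (SD, n = 10). Its log2 difference of -0.31 missed the threshold (adjusted P = 0.0520, edgeR) and passed it with the mouse as a block (-0.31, adjusted P = 0.00240, edgeR), cortex being higher in 8 of 10 mice. *Wnt4*, which acts in both kinds of route, had a log2 difference of 0.13 with a 95% interval of -0.17 to 0.44 (adjusted P = 0.461, edgeR). The remaining 4 ligands did not pass the filter on low counts. *Wnt10b* had up to 0.532 CPM, *Wnt3a* was counted in 5 cortex and 2 hippocampus libraries, *Wnt1* in 1 library of each region, both of mouse 8, and *Wnt8a* in 1 cortex library. None of the 4 was tested.

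Of the Frizzled receptors, *Fzd1* and *Fzd7* differed most. In cortex, the WT libraries held 6.51, 9.72, 10.0, 6.54 and 7.34 CPM and the *Ube3a+2* libraries 6.42, 8.14, 19.0, 15.1 and 6.46 CPM. In hippocampus, they held 22.4, 13.3, 33.7, 28.0 and 25.7 CPM in WT and 26.1, 29.5, 23.4, 21.7 and 29.7 CPM in *Ube3a+2* mice. *Fzd1* was higher in hippocampus in all 10 mice, and the regions overlapped through the hippocampus of mouse 2 and the cortex of mice 8 and 9. *Fzd1* had a log2 fold change of 1.43 (SE 0.20, adjusted P = 9.75e-06, edgeR).

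*Fzd7*, a receptor of neural progenitors among other cells, showed a similar order of the regions. *Fzd7* stood at 8.38, 5.60, 10.7, 9.60 and 9.70 CPM in WT and 10.6, 9.54, 9.34, 8.49 and 8.33 CPM in *Ube3a+2* hippocampus. The cortex values were 3.45, 4.86, 4.73, 2.76 and 4.11 CPM in WT and 3.24, 7.17, 8.59, 6.16 and 3.92 CPM in *Ube3a+2* mice. It was higher in hippocampus in all 10 mice, with some overlap between different mice. This gave a log2 fold change of 0.91 (SE 0.16, adjusted P = 5.88e-05, edgeR). *Fzd2*, *Fzd6* and *Fzd9* were also called higher, by 0.47, 0.30 and 0.29 on the log2 scale (adjusted P = 0.00751, 0.0252 and 0.0228, edgeR), and the value of *Fzd9* was 0.03 (adjusted P = 0.811, edgeR) without the 8 libraries. The call of *Fzd9* was also lost without mouse 3, 4, 7 or 10 (adjusted P from 0.0505 to 0.0758, edgeR), and that of *Fzd6* without mouse 5, 7 or 10 (adjusted P from 0.0516 to 0.0770, edgeR).

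*Fzd3*, a receptor of the planar cell polarity route that guides axons, was the Frizzled receptor called lower. Cortex libraries of WT mice gave 36.2, 35.2, 36.1, 41.3 and 48.2 CPM, and those of *Ube3a+2* mice 37.5, 37.6, 35.8, 39.3 and 54.5 CPM. Hippocampus libraries gave 20.9, 32.6, 21.8, 18.6 and 19.6 CPM and 21.6, 25.5, 32.7, 33.5 and 31.4 CPM in the same order of genotypes. Every cortex library lay above every hippocampus library, and the highest hippocampus values were those of mice 2, 8, 9 and 10. The fitted difference was -0.65 on the log2 scale (SE 0.11, adjusted P = 6.32e-05, edgeR). In the annotation the span of the gene, introns included, overlaps *Gm27263* on the same strand, so that reads of the 2 may not be separable.

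*Fzd10*, which marks parts of the dorsal embryonic brain, is described although its naming fell outside the rule, being chosen after its values were seen. The hippocampus held 0.586, 1.42, 0.925, 9.54 and 0.751 CPM in WT and 0.834, 13.6, 3.13, 1.99 and 23.7 CPM in *Ube3a+2* mice. For cortex, 4.98, 3.37, 4.15, 5.90 and 6.22 CPM were found in WT and 5.34, 5.49, 2.80, 3.54 and 6.08 CPM in *Ube3a+2* mice. In hippocampus, mice 4, 7 and 10 lay above every cortex library, whereas the other 7 libraries, except that of mouse 8, lay below every cortex library. Over all libraries the log2 difference was 0.00 (95% interval -1.27 to 1.28, adjusted P = 0.995, edgeR). Without the 3 hippocampus libraries highest in thalamus and habenula markers it was -1.82 (adjusted P = 1.39e-05, edgeR) and without all 8 libraries that stood apart -2.13 (adjusted P = 1.24e-05, edgeR). *Fzd5*, named for the same reason, was 0.711 to 2.51 CPM in cortex and 0.586 to 10.1 CPM in hippocampus, with a hippocampus median of 1.01 CPM and the highest value in mouse 10. *Fzd8*, at -0.27 (adjusted P = 0.0686, edgeR), passed with the mouse as a block (-0.28, adjusted P = 0.0309, edgeR), and *Fzd4* was at -0.04 with a 95% interval of -0.28 to 0.19.

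The 2 co-receptors differed from each other in their pattern. *Lrp5* was 17.5 ± 2.08 CPM in hippocampus and 12.9 ± 1.77 CPM in cortex (SD, n = 10), higher in hippocampus in all 10 mice, with a log2 difference of 0.44 (SE 0.08, adjusted P = 6.45e-05, edgeR). *Lrp6* was 36.2 ± 3.22 CPM and 36.1 ± 5.71 CPM (SD, n = 10), with a log2 difference of 0.00 whose 95% interval was -0.16 to 0.16. The 2 intervals, 0.28 to 0.61 for *Lrp5* and that of *Lrp6*, did not overlap, while the difference between the genes was not tested.

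Among the secreted inhibitors, *Sfrp2*, which binds Wnt ligands, was lower in hippocampus. In cortex, the WT libraries held 11.5, 13.5, 11.9, 12.2 and 10.5 CPM and the *Ube3a+2* libraries 10.1, 11.7, 11.1, 11.0 and 9.11 CPM. In hippocampus, they held 6.51, 7.45, 6.23, 7.13 and 5.08 CPM in WT and 4.89, 9.54, 7.98, 11.6 and 8.21 CPM in *Ube3a+2* mice. Cortex was higher in 9 of 10 mice, the exception being mouse 9, whose hippocampus library stood apart in neocortex, choroid plexus and striatum markers. On the log2 scale, *Sfrp2* differed by -0.60 (SE 0.11, adjusted P = 0.000119, edgeR). *Sfrp1* and *Sfrp4* were at 0.03 (95% interval -0.39 to 0.45) and 0.25 (95% interval -0.15 to 0.65), and *Sfrp5* had 0.194 to 0.776 CPM in cortex and 0 to 1.09 CPM in hippocampus and was not tested.

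*Dkk3*, a Dickkopf family member that differs from the others in not acting as a plain blocker of Lrp co-receptors, had the highest level per length of all members. *Dkk3* stood at 177, 211, 183, 168 and 202 CPM in WT and 188, 147, 159, 126 and 136 CPM in *Ube3a+2* hippocampus. The cortex values were 124, 95.4, 140.4, 133 and 131 CPM in WT and 149, 146, 137, 112 and 131 CPM in *Ube3a+2* mice. Hippocampus was higher in all 10 mice, and the regions overlapped through the hippocampus of *Ube3a+2* mice 7, 9 and 10 and the cortex of several mice. *Dkk3* had a log2 fold change of 0.38 (SE 0.08, adjusted P = 0.000359, edgeR). *Dkk2* was at -0.30 (95% interval -0.70 to 0.11, adjusted P = 0.217, edgeR), and at -0.65 (adjusted P = 0.0125, edgeR) without the 8 libraries. *Dkk1* and *Dkk4*, both blockers of *Lrp5* and *Lrp6*, did not pass the filter. *Dkk4* had no count in cortex and 16 counts in hippocampus, all in mice 4, 7 and 10. Summed over libraries, these counts were at least 5.00-fold higher against a floor of 3 counts over all cortex libraries, which leaves out the spread between mice. The exact permutation test that swapped regions within mice gave P = 0.25 for *Dkk4*. *Wif1* was at 0.46 (95% interval -0.16 to 1.08), with its highest hippocampus value, 6.41 CPM, in mouse 10, and *Frzb* at 0.05 (95% interval -0.38 to 0.48).

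Of the R-spondins, which enhance Wnt signaling, *Rspo2* had the highest level per length. Cortex libraries of WT mice gave 11.2, 11.1, 12.6, 10.9 and 11.9 CPM, and those of *Ube3a+2* mice 11.3, 15.4, 27.1, 21.8 and 12.1 CPM. Hippocampus libraries gave 28.1, 37.7, 25.1, 16.2 and 21.7 CPM and 24.8, 21.1, 33.7, 21.4 and 14.6 CPM in the same order of genotypes. Hippocampus was higher in 9 of 10 mice, the cortex libraries of mice 8 and 9 were the 2 highest of that region, and the hippocampus libraries of mice 4, 7 and 10 were the 3 lowest of theirs. This gave a log2 fold change of 0.78 (SE 0.18, adjusted P = 0.00131, edgeR), and 1.17 without the 8 libraries (adjusted P = 1.20e-07, edgeR). *Rspo1* was called at 0.78 (adjusted P = 0.00717, edgeR) and was at 0.16 (adjusted P = 0.562, edgeR) without the 8 libraries, whereas *Rspo3* went from 0.24 (adjusted P = 0.235, edgeR) to 0.60 (adjusted P = 0.00166, edgeR). *Rspo4*, under the filter, had 0.0596 to 1.08 CPM in hippocampus and 0 to 0.316 CPM in cortex. *Axin2*, the general target and feedback inhibitor of the β-catenin route, was 24.8 ± 3.65 CPM in hippocampus and 24.0 ± 3.07 CPM in cortex (SD, n = 10), with a log2 difference of 0.04, a 95% interval of -0.11 to 0.19 and adjusted P = 0.638 (edgeR).

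Several members were highest in the same few libraries. The hippocampus libraries of mice 4, 7 and 10, 1 WT and 2 *Ube3a+2*, held 349, 446 and 866 CPM of the 7 thalamus and habenula markers in sum, against a region median of 167 CPM. Over groups, this sum ranged from 126 to 349 CPM in WT and from 139 to 866 CPM in *Ube3a+2* hippocampus, 6 of the 7 markers had a count in every library of either group, and none was at 0 in all of them. *Gbx2*, *Lhx9*, *Ntng1*, *Rora* and *Slc17a6* were each highest in mice 4, 7 and 10, and *Slc17a6* gave 177, 204 and 455 CPM of the sums. *Tac2* (8.51, 8.15 and 8.45 CPM) lay within the range of the other hippocampus libraries, 4.49 to 10.5 CPM. *Pou4f1* was at 1.95, 0.0604 and 12.0 CPM, and so was not raised in mouse 7. These 3 libraries were the 3 highest of hippocampus for 6 of the 38 tested members (15.8%), namely *Wnt3*, *Wnt9a*, *Wnt9b*, *Fzd9*, *Fzd10* and *Wif1*, and for 3.93% of all genes tested. They were the 3 lowest for 1 member (2.63%), *Rspo2*, and for 2.08% of all genes. In cortex, mice 8 and 9, both *Ube3a+2*, held 397 and 381 CPM of the hippocampus markers against a region median of 294.9 CPM. Over groups, this sum ranged from 250.5 to 312 CPM in WT and from 263 to 397 CPM in *Ube3a+2* cortex, 7 of the 8 markers had a count in every library of either group, and none was at 0 in all of them. *Calb1*, *Fibcd1*, *Prox1*, *Spink8* and *Zbtb20* were each highest in the cortex of mice 8 and 9. *Neurod6* (206 and 202 CPM), *Lct* (1.43 and 1.71 CPM) and *Dsp* (0.239 and 0.732 CPM) were not raised there. These 2 libraries were the 2 highest of cortex for 11 members (28.9%), namely *Wnt2*, *Wnt5a*, *Wnt6*, *Wnt7a*, *Wnt9b*, *Wnt10a*, *Wnt11*, *Fzd1*, *Fzd2*, *Fzd5* and *Rspo2*, and for 9.41% of all genes tested. They were the 2 lowest for 1 member (2.63%), *Wnt2b*, and for 8.51% of all genes. The hippocampus libraries of mice 2 and 9, highest in neocortex markers at 1008 and 585 CPM against a region median of 336 CPM, were the 2 lowest for 7 members (18.4%), namely *Wnt5a*, *Wnt8b*, *Wnt9b*, *Fzd1*, *Fzd6*, *Sfrp4* and *Lrp5*, against 6.28% of all genes, and the 2 highest for 0 members, against 5.36% of all genes. Mice 7, 9 and 10 stood apart in choroid plexus markers, at 1958, 348 and 22.8 CPM in sum. Mouse 10 did so by a narrow margin (0.508 against the limit of 0.5). Its sum lay below those of WT mice 2 and 3 (32.5 and 31.7 CPM), which did not stand apart in that list. Mice 7, 9 and 10 were the 3 highest of hippocampus for *Fzd5* and *Sfrp2* (5.26% of members and 3.01% of genes) and the 3 lowest for *Dkk3* (2.63% and 2.16%). Mouse 9, which stood apart in striatum markers, was the highest for 6 members (15.8%, against 11.7% of genes) and the lowest for 6 others (15.8%, against 10.5% of genes). The part of tissue from neighboring regions in these values was not tested.

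**Figure D3:**
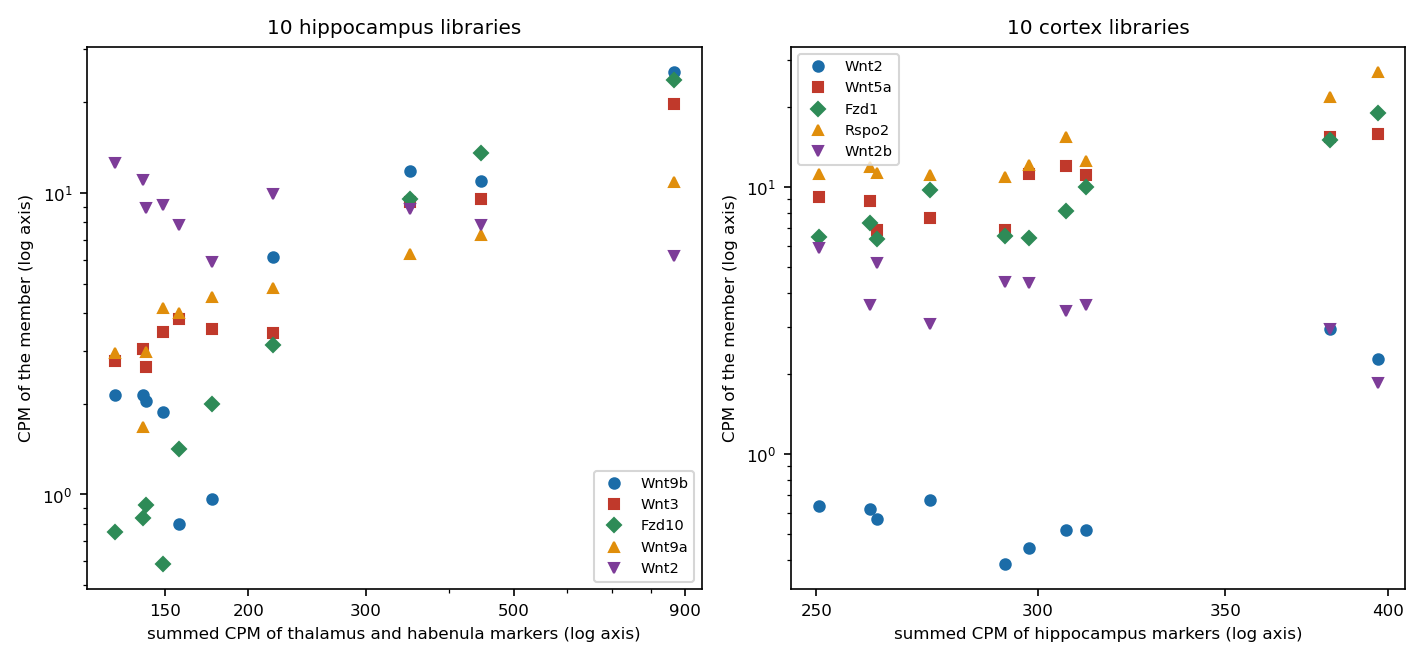
Left, CPM of 5 members in the 10 hippocampus libraries against the summed CPM of 7 thalamus and habenula markers. Right, CPM of 5 members in the 10 cortex libraries against the summed CPM of 8 hippocampus markers. All axes are log axes and each point is 1 library. *Wnt9b*, *Wnt3*, *Fzd10* and *Wnt9a* are highest in the 3 hippocampus libraries at 349, 446 and 866 CPM of markers, and *Wnt2*, *Wnt5a*, *Fzd1* and *Rspo2* are highest in the 2 cortex libraries at 381 and 397 CPM.

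Levels were compared between genes as CPM per kilobase of annotated exon. *Dkk3* was first of the 46 members in both regions, at 50.5 ± 8.30 CPM per kilobase in hippocampus and 38.6 ± 4.79 in cortex (SD, n = 10), and *Wnt7b* was next, at 14.9 ± 2.78 and 18.5 ± 3.78. In hippocampus *Wnt7a*, *Fzd9*, *Sfrp1* and *Fzd1* followed at 8.17 ± 1.08, 7.66 ± 1.89, 6.53 ± 2.34 and 6.04 ± 1.34 CPM per kilobase, and neighbors among these 4 differed by less than 1 SD. *Wnt2* had rank 30 in cortex and rank 11 in hippocampus, and *Wnt9b* ranks 42 and 26, at 1.42 ± 1.72 CPM per kilobase. *Wnt9a* had rank 8 in cortex and rank 24 in hippocampus. *Wnt8b*, despite its large ratio, was at 0.300 ± 0.164 CPM per kilobase in hippocampus, rank 35.

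**Figure D4:**
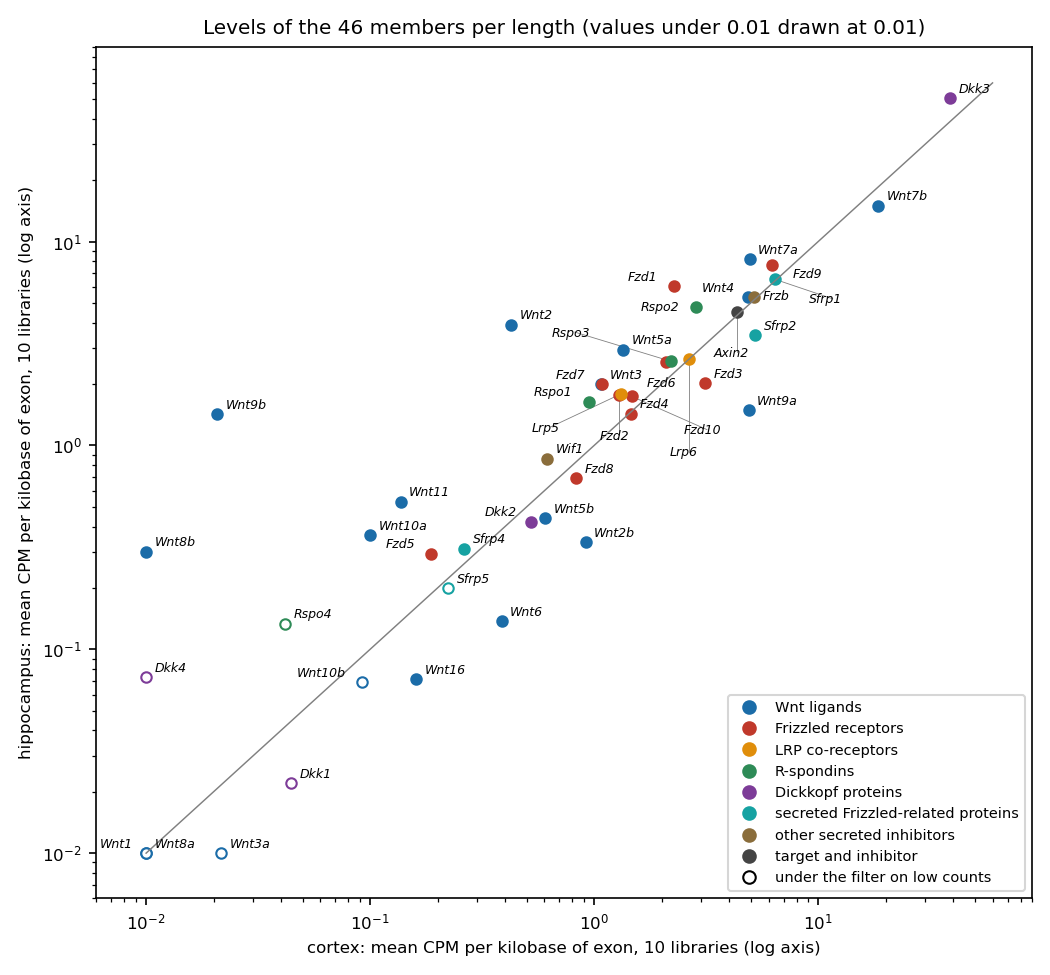
Mean CPM per kilobase of exon of the 46 members in cortex and hippocampus (10 libraries each, log axes), colored by role, with open points for the 8 members under the filter on low counts and a line for equal levels. *Dkk3* and *Wnt7b* lie at the top right and *Wnt9b* and *Wnt8b* lie farthest above the line, where values under 0.01 are drawn at 0.01, while *Wnt9a* lies below it.

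In the GENCODE M21 annotation (GRCm38), 8 of the ligand genes form 4 pairs of neighbors. *Wnt9b* (chr11:103727364-103749821, minus strand) lies 24328 bases from *Wnt3* (chr11:103774150-103817957, plus strand), and both were highest in the same 3 hippocampus libraries. *Wnt3a* lies 16175 bases from *Wnt9a* on chromosome 11 and *Wnt10b* 11706 bases from *Wnt1* on chromosome 15. In the fourth pair, *Wnt6* and *Wnt10a* on chromosome 1, 6193 bases apart, *Wnt6* was lower (-1.41) and *Wnt10a* higher (1.87) in hippocampus. *Wnt2b* and *Rspo3* also overlap another annotated gene on the same strand, and *Wnt11*, *Wnt5a*, *Wnt5b*, *Wnt6*, *Wnt7b*, *Fzd3*, *Fzd5*, *Fzd6*, *Sfrp2*, *Rspo1*, *Rspo3*, *Rspo4* and *Axin2* overlap one on the opposite strand. These overlaps are of whole gene spans, introns included, and whether exons overlap was not examined. The counts of these members may be uncertain to that extent, since the strand setting of the counting is not given in the sources used here.

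Another 50 genes of the pathway, from a list that holds intracellular components, cofactors, further receptors and modulators, were examined for comparison. Of these 49 were tested and 30 differed between the regions, 19 higher and 11 lower in hippocampus, beside 50.9% of all genes. Their median log2 fold change was 0.08. *Tcf7l2*, a TCF factor that in the brain is strongest in the thalamus and habenula, was 4.45, 2.83, 4.25, 226 and 4.27 CPM in the WT and 4.77, 271, 46.2, 6.17 and 564 CPM in the *Ube3a+2* hippocampus, and 1.28 to 2.79 CPM in cortex. Mice 4, 7, 8 and 10 stood far above the other hippocampus libraries. The log2 difference of 5.29 (adjusted P = 0.00104, edgeR) was 2.18 (adjusted P = 0.00727, edgeR) without the 8 libraries, which leaves in mouse 8. *Lef1*, a LEF factor needed for the dentate gyrus, was at 1.75 (adjusted P = 0.00294, edgeR) and at 1.10 without the 8 libraries (adjusted P = 2.80e-06, edgeR). *Vangl1*, a planar cell polarity component, *Ndp*, a ligand of *Fzd4*, and *Ctnnb1*, which encodes β-catenin, were also higher in hippocampus, by 1.27, 0.92 and 0.40 (adjusted P = 0.000743, 1.55e-07 and 3.21e-08, edgeR). *Vangl1* was 19.8, 23.4 and 41.3 CPM in the hippocampus of mice 4, 7 and 10, above the other 7 hippocampus libraries, and its log2 difference was 0.82 without the 8 libraries (adjusted P = 1.41e-05, edgeR) and 0.65 without those 3 (adjusted P = 9.91e-05, edgeR). Without those 3, *Tcf7l2* was at 1.88 and *Lef1* at 0.66 (adjusted P = 0.00125 and 0.0161, edgeR). *Lgr6*, an R-spondin receptor, the planar cell polarity genes *Prickle1* and *Prickle2*, and *Ror2*, a receptor for *Wnt5a*, were lower, at -1.09, -0.99, -0.58 and -0.53 (adjusted P = 1.73e-05, 6.52e-09, 7.76e-07 and 0.0116, edgeR). *Wls*, which carries Wnt ligands to the cell surface, was at -0.03 (adjusted P = 0.880, edgeR).

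The difference between regions was then taken within each genotype, in the fit over all 20 libraries. In WT mice 19 of 38 members passed (37.1% of all genes) and in *Ube3a+2* mice 18 (33.2% of all genes). The interaction of genotype and region, which tests whether the regional difference depends on the genotype, was passed by 0 members and by 0% of all genes (edgeR), and at an unadjusted P value under 0.05 by 4 members, *Wnt2*, *Sfrp2*, *Dkk3* and *Rspo2*, and by 3.77% of all genes. DESeq2 also called 0 members and gave the same 4 at an unadjusted P value under 0.05 (3.85% of all genes). With the mouse as a block, 0 members passed, and the 4 at an unadjusted P value under 0.05 were *Wnt2b*, *Sfrp2*, *Dkk3* and *Rspo2* (6.03% of all genes), without *Wnt2*. When mice were left out in turn, this unadjusted number ranged from 1, *Dkk3*, without mouse 9 (2.43% of all genes) to 9 of 38 without mouse 6 (7.47%). The regional difference of *Wnt2* was 4.04 in WT and 2.58 in *Ube3a+2* mice, an interaction of -1.46 (SE 0.57, adjusted P = 0.997, edgeR). Without the 8 libraries, 2 of which are the *Ube3a+2* cortex libraries highest for *Wnt2*, it was 0.22 (SE 0.38). That of *Rspo2* went from -0.76 to 0.04 (SE 0.20).

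Genotypes were compared within each tissue, to ask whether extra *Ube3a* copies altered any member. In hippocampus 0 of 36 tested members passed the threshold by edgeR or DESeq2, as against 0.00657% of 15220 genes, which is *Ube3a* alone. Without adjustment, 2 members had a P value under 0.05 by edgeR, *Dkk3* and *Axin2*, and 7.21% of all genes. By DESeq2 there were 4 members, and 7.77% of all genes. The edgeR fit over all 20 libraries gave 7 of 38 members, *Axin2*, *Dkk3*, *Sfrp2*, *Fzd3*, *Fzd5*, *Fzd8* and *Fzd10*, and 9.95% of all genes, with 0 members past the adjusted threshold. For *Dkk3*, *Ube3a+2* mice 7 to 10 lay below every WT library and mouse 6 within their range. The difference of *Ube3a+2* from WT mice was -0.32 (SE 0.10, adjusted P = 0.668, edgeR), and -0.11 (SE 0.09) without the libraries that stood apart, which leaves 3 WT and 2 *Ube3a+2* mice. *Axin2* was 22.2, 18.0, 27.7, 23.0 and 20.4 CPM in WT and 27.9, 28.3, 25.6, 27.4 and 27.2 CPM in *Ube3a+2* hippocampus. Mouse 3 was the WT library that overlapped the *Ube3a+2* range, and the difference was 0.29 (SE 0.10, adjusted P = 0.668, edgeR). It was 0.19 (SE 0.14) without the libraries that stood apart, where neither *Axin2* nor *Dkk3* had an unadjusted P value under 0.05 and *Wnt9b*, *Fzd3*, *Fzd4* and *Fzd10* did (3.93% of all genes). The exact permutation test over mice gave an unadjusted P = 0.0317 for *Axin2* and 0.0397 for *Dkk3*.

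The difference of *Wnt9b* between *Ube3a+2* and WT hippocampus was 1.28 on the log2 scale (95% interval -0.90 to 3.45, adjusted P = 0.738, edgeR), a value that did not pass the test and ranged from 0.44 without mouse 10 to 2.40 without mouse 4. The means were 3.73 ± 4.54 CPM in WT and 9.09 ± 9.84 CPM in *Ube3a+2* mice (SD, n = 5), and 4 of 5 *Ube3a+2* libraries lay within the WT range. Its 3 highest libraries, mice 4, 7 and 10, were the 3 that stood apart in thalamus and habenula markers. The widest intervals of hippocampus were those of *Fzd10* (-0.78 to 4.18), *Wnt9b*, *Fzd5* (-0.01 to 3.32) and *Wnt3* (-0.55 to 2.20). For *Lrp6*, *Lrp5* and *Axin2* the intervals were narrow, -0.04 to 0.29, -0.28 to 0.20 and 0.08 to 0.51.

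In cortex 0 of 32 tested members passed by edgeR or DESeq2, against 0.00669% of 14947 genes, again *Ube3a* alone by edgeR. An unadjusted P value under 0.05 was reached by 5 members with either tool, all with a difference above 0, and by 4.44% of all genes with edgeR and 4.56% with DESeq2. They were *Rspo2* (0.61), *Lrp5* (0.26), *Wnt5a* (0.49), *Fzd8* (0.32) and *Fzd7* (0.56), each with adjusted P = 0.960 (edgeR). For *Rspo2*, whose cortex values are given above, mice 8 and 9 lay above all other libraries, mouse 7 lay at 15.4 CPM and mice 6 and 10 lay within the WT range of 10.9 to 12.6 CPM. Without the cortex libraries that stood apart, mouse 3 of the WT and mice 8 and 9 of the *Ube3a+2* mice, the differences were 0.19 for *Rspo2* (SE 0.13), 0.30 for *Lrp5* (SE 0.13), 0.30 for *Wnt5a* (SE 0.19), 0.32 for *Fzd8* (SE 0.17) and 0.34 for *Fzd7* (SE 0.28), and 0 members passed. The median difference over the members was 0.08 in hippocampus, with 21 of 36 members above 0, and 0.17 in cortex, with 23 of 32 above 0. Over all genes tested the medians were 0.0023 and 0.0033, with 7715 of 15220 and 7677 of 14947 genes above 0. Regardless of sign, the median size was 0.21 for the members in either tissue, against 0.09 over all genes in hippocampus and 0.07 in cortex. For the other pathway genes it was 0.08 and 0.07. The members were not matched to all genes for level or spread (SE 1.09 for *Fzd10* and 0.96 for *Wnt9b* in hippocampus), so these medians do not show a larger response to genotype.

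**Figure D5:**
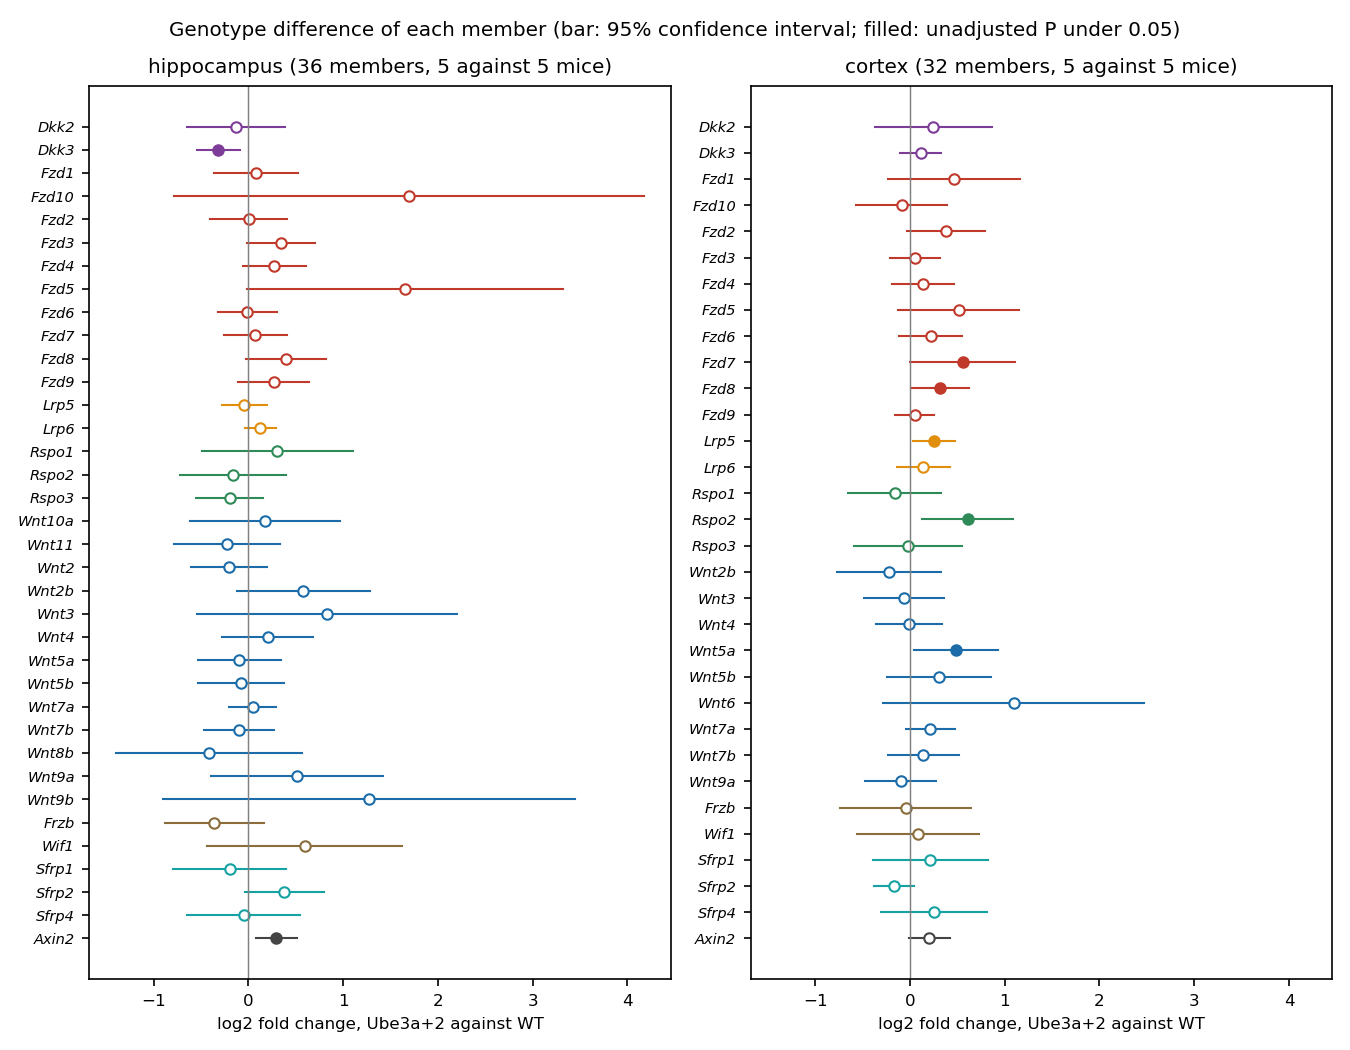
Difference between *Ube3a+2* and WT mice for the 36 members tested in hippocampus and the 32 tested in cortex, as log2 fold change with its 95% confidence interval (5 mice per genotype). Filled points have an unadjusted P value under 0.05, which holds for *Dkk3* and *Axin2* in hippocampus and for *Rspo2*, *Lrp5*, *Wnt5a*, *Fzd8* and *Fzd7* in cortex. The longest bars in hippocampus are those of *Fzd10*, *Wnt9b*, *Fzd5* and *Wnt3*.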

How the data were processed

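Genotype, tissue and mouse number were taken from the sample labels. The authors deposited whole-number counts of reads per gene for each library, made per the labels and the submitters' processing notes from stranded libraries with HISAT2 2.1.0 and HTSeq 0.11.2 on GRCm38 (mm10). The annotation release and the strand setting used for counting are not given in the sources used here. Reads not assigned to a gene (18.8% to 30.3%) were left out. The quasi-likelihood F test of edgeR 4.0.16 (robust, R 4.3.3) was fitted to the counts after filterByExpr by group and TMM scaling: 20 libraries in 4 groups for the regions and the interaction, and 10 libraries for each genotype comparison. P values were adjusted by Benjamini-Hochberg over all genes tested, with a threshold of 0.05. CPM used TMM-scaled library sizes. Single members were also compared by two-sided exact permutation tests on log2(CPM + 0.5), whose smallest P values are 0.00195 over 10 mice and 0.00794 for 5 against 5. Positions and exon lengths came from GENCODE M21.

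A hippocampus and a cortex library with the same mouse number come from the same animal. After group means were removed, their log2 CPM correlated across genes with a median of 0.215 (-0.0367 to 0.248, above 0.1 in 9 of 10 mice). The fits were tested on simulated data. Of planted log2 changes of 0.5, they recovered 65.3% between regions, and between genotypes 50.5% in hippocampus and 52.1% in cortex. Of planted changes of 1, they recovered 93%, 79.5% and 81.7%. The simulated libraries were drawn independently, without the pairing by mouse or libraries that stand apart. Only 199 of 15499 genes in the regional test of a change of 0.5 were changed, whereas 50.9% of genes differed between regions in the data. The recovery between regions may therefore not carry over to the data. Alternatives were DESeq2 1.42.0, other size factors, no filter, the mouse as a block, either genotype alone, labelled sex as a covariate and each mouse left out, and 2 that leave out libraries were chosen after the data were seen. The members, the marker lists and the pathway list were chosen with earlier results of these data known. Values of each library are given for *Wnt9b*, for the called members with the 8 largest positive and up to 6 largest negative regional differences at 1 CPM or more in a region (5 were found), for the member with the smallest P value between genotypes in each tissue, and, chosen after their values were seen, for *Fzd10* and for *Axin2* in hippocampus. Of the other pathway genes, the 4 called with the largest difference in each direction are named, and *Ctnnb1*, *Lef1*, *Tcf7l2* and *Wls*.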

Additional observations from a re-analysis of the deposited data

Results flagged for a closer look

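In 17 of 152 groups of 5 libraries examined, 1 library lay farther from the rest than Dixon's limit of 0.71 of the group's range allows. Chance flags about 1 in 20 groups of normally distributed values, a rate that cannot be set beside this number, since the groups share the same 20 libraries and some hold only a few counts, such as *Wnt8b* in *Ube3a+2* cortex with 2 counts in 1 library and none in the others. In WT hippocampus these were *Wnt3* at 9.31 CPM in mouse 4 (highest, nearest library 3.81 CPM), *Wnt2* at 12.5 CPM in mouse 5 (highest, nearest library 9.08 CPM), *Wnt9b* at 11.8 CPM in mouse 4 (highest, nearest library 2.14 CPM), *Wnt5a* at 12.6 CPM in mouse 2 (lowest, nearest library 25.7 CPM), *Wnt6* at 0.690 CPM in mouse 4 (highest, nearest library 0.185 CPM), *Fzd3* at 32.6 CPM in mouse 2 (highest, nearest library 21.8 CPM), *Fzd10* at 9.54 CPM in mouse 4 (highest, nearest library 1.42 CPM) and *Sfrp1* at 55.6 CPM in mouse 2 (highest, nearest library 28.1 CPM). In *Ube3a+2* hippocampus these were *Fzd5* at 10.1 CPM in mouse 10 (highest, nearest library 2.25 CPM) and *Wif1* at 6.41 CPM in mouse 10 (highest, nearest library 1.93 CPM). In WT cortex these were *Wnt9b* at 0.128 CPM in mouse 4 (highest, nearest library 0.0748 CPM), *Wnt16* at 1.06 CPM in mouse 5 (highest, nearest library 0.598 CPM) and *Frzb* at 8.52 CPM in mouse 2 (lowest, nearest library 18.1 CPM). In *Ube3a+2* cortex these were *Wnt10a* at 0 CPM in mouse 7 (lowest, nearest library 0.318 CPM), *Wnt8b* at 0.122 CPM in mouse 9 (highest, nearest library 0 CPM), *Fzd3* at 54.5 CPM in mouse 10 (highest, nearest library 39.3 CPM) and *Sfrp4* at 0.762 CPM in mouse 6 (lowest, nearest library 1.20 CPM). Of the 17, 4 were in the hippocampus library of mouse 4 and 3 in that of mouse 2, both of which stood apart in markers of another tissue. The part of those markers in the values was not tested. No member passed the test for the interaction of genotype and region. Nor did any tested member have a regional difference of 1 sign in all WT mice and of the other sign in all *Ube3a+2* mice.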

How the results depend on the processing

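The calls between regions held in most settings. Members called were 25 with DESeq2 (51.3% of all genes), 24 with its size factors (50.8%) and 23 of 46 without the filter on low counts (27.5%), and leaving out each mouse in turn gave 20 to 25 (46.3% to 50.6% of all genes; 14 to 17 higher and 5 to 8 lower, and 27 to 32 of the other pathway genes). With the mouse as a block, which pairs the 2 libraries of an animal, 25 members were called (55.8% of all genes), 23 of them shared with the fit without the block, *Wnt3* being lost and *Wnt7b* and *Fzd8* gained, and 35 other pathway genes were called against 30. The block changed no other call among the members. With WT libraries only, 15 of 34 members were called (11 higher and 4 lower, 38% of all genes), and with *Ube3aOE* libraries only 12 of 34 (9 higher and 3 lower, 26.9% of all genes) and 18 other pathway genes. Fewer libraries entered these fits. Without the hippocampus libraries highest in thalamus and habenula markers 21 members were called (45.5% of all genes), 19 of them shared.

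Of the values, *Wnt3* turned to -0.15 without the 8 libraries that stood apart and to -0.011 without the 3 highest in thalamus and habenula markers. *Fzd5* turned to -0.11 with WT libraries only and -0.44 and -0.28 without those 8 or 3 libraries, and ranged from -0.20 (without mouse 10) to 0.70 when mice were left out in turn. *Fzd10* turned to -0.58 with the block, -0.87 with WT libraries only, and -2.13 and -1.82 without those 8 or 3 libraries, and ranged from -0.72 (without mouse 4) to 0.18 when mice were left out in turn, also being below 0 without mouse 7 or 10. Neither *Fzd5* nor *Fzd10* was called over all libraries. The cause was not tested. Over all alternatives, the call of *Wnt3* was lost in 12, of *Wnt5b* in 10, of *Fzd9* in 8 and of *Fzd6* in 6. Comparisons of genotype and the interaction gave 0 members in every setting run. With 5 mice per genotype and 95% intervals as wide as those given, the absence of calls does not show equal levels.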
